A study of Mus musculus with 24 samples.

Results

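Ketone bodies are made mainly in liver during fasting and are burned in heart, muscle and kidney, and the transcripts described here belong to 5 genes of that metabolism, Bdh1, Bdh2, Oxct1, Acat1 and Slc16a1. They were chosen by gene symbol from the 55401 genes of a count table, with earlier results of these data known, and all 5 were found and passed the filter on low counts in each of the 3 tissues. The choice concerned their levels in the 3 tissues and their change between ages, so both are described here and are not tested as findings. Differences between sexes were not part of that choice and were tested.

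Ribosome-depleted total RNA was sequenced from 3 tissues of C57BL6/J mice, the left ventricle, a skeletal muscle and the kidney, at 86 weeks and at 16.5 weeks of age. Each age had 4 mice, 2 males and 2 females, and each mouse gave 1 library per tissue, 24 libraries in all. No treatment or genotype is given in the labels. They name neither the muscle nor the kidney region taken, nor how the mice were fed before sampling.

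Entry of ketone bodies into a cell depends on the monocarboxylate transporter MCT1, encoded by Slc16a1, which carries lactate, pyruvate, beta-hydroxybutyrate and acetoacetate together with protons. In mitochondria the dehydrogenase encoded by Bdh1 interconverts beta-hydroxybutyrate and acetoacetate. The transferase encoded by Oxct1, also called SCOT, then attaches coenzyme A to acetoacetate, the step that commits it to oxidation and that liver lacks. Acat1 encodes the mitochondrial thiolase that splits acetoacetyl-CoA into acetyl-CoA, and also acts in isoleucine breakdown. Bdh2 encodes a cytosolic dehydrogenase that has also been linked to iron handling and is not part of the classical mitochondrial route.

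In the GENCODE M21 annotation of GRCm38 all 5 are protein-coding genes. Bdh1 (ENSMUSG00000046598.15) lies at chr16:31422280-31458901 on the plus strand, with 7 annotated transcripts. Bdh2 (ENSMUSG00000028167.15) lies at chr3:135281221-135304426 and Slc16a1 (ENSMUSG00000032902.1) at chr3:104638668-104658462, both on the plus strand. Oxct1 (ENSMUSG00000022186.14) lies at chr15:4026383-4155344 on the plus strand and Acat1 (ENSMUSG00000032047.5) at chr9:53580522-53610382 on the minus strand. The strand setting of the counting is not given in the sources used here, so reads of opposite-strand neighbours may be shared: Gm15743 overlaps 533 exon bases of Bdh1 and BC037032 overlaps 467 exon bases of Oxct1.

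Bdh1 is the gene whose level moved most with age below, and it is the only member with more than 1 start in the RefSeq promoter table (GRCm38.p6). Both of its windows, each 250 bases before to 50 bases after a start on the plus strand, are shown 5′ to 3′, with a GC box (GGGCGG on either strand) in capitals.
Bdh1 first start, chr16:31422047-31422346: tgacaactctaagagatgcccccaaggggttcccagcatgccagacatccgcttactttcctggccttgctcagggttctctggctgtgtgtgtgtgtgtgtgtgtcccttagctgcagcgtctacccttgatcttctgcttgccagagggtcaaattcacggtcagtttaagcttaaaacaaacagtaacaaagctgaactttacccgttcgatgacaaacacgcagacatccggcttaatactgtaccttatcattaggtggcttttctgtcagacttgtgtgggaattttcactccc
Bdh1 second start, chr16:31428503-31428802: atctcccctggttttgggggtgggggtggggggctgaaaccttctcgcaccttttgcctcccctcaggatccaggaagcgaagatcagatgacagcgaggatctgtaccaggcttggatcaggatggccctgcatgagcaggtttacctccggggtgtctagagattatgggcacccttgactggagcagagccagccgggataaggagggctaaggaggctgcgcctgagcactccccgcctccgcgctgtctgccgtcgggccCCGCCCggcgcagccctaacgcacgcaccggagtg
The first window has 48.3% G and C and no GC box, and the second has 63.7% and 1 GC box, where the median over all RefSeq mouse promoters was 52.7% and 35.7% of 32851 windows held a GC box. The window of Slc16a1 also held 1 GC box, at 73.7% G and C, and those of Bdh2 (48.7%) and Oxct1 (55.3%) held none. The half-sites AGGTCA of nuclear receptors and AGAACA of steroid receptors, searched on both strands, occurred in 16.3% and 19% of all windows and in none of these 5 windows. None of the 5 windows belongs to Acat1, which has no entry in that promoter table, so its promoter was not searched. Counts are per gene, so they do not say from which Bdh1 start the reads came.

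The labelled tissues carried their own markers. The summed level of 6 cardiomyocyte genes was 44190 to 63960 CPM (counts scaled to the library total) in left ventricle, that of 7 fast muscle fibre genes was 121800 to 184600 CPM in skeletal muscle, and that of 4 genes of the early proximal tubule was 6969 to 10370 CPM in kidney. Slow fibre markers summed to 9.73 to 50.3 CPM in skeletal muscle, so fast fibre markers predominated in it. The cardiomyocyte genes summed there to medians of 27.4 CPM at 86 weeks and 22.8 CPM at 16.5 weeks, but reached 514.5 CPM in an 86-week male. The part of such reads in the low muscle level of Bdh1 was not tested. Libraries held 52602585 to 103797551 counts, and genes of the mitochondrial genome took 14% to 29.4% of them. Library totals were adjusted by TMM normalisation over all 24 libraries, and levels of different genes are compared only per kilobase of exon. In whole tissue, fewer cells of a type and less RNA per cell cannot be told apart.

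Oxct1 was the most abundant of the 5 genes in each tissue and Acat1 came next. Per exon kilobase, Oxct1 averaged 220 ± 34.7 CPM in kidney, 240 ± 26.7 CPM in left ventricle and 77.4 ± 12.6 CPM in skeletal muscle (SD, n = 8 each). Acat1 averaged 107 ± 48.5 CPM per kilobase in kidney, 99.9 ± 16.97 in left ventricle and 29.0 ± 3.19 in skeletal muscle. Kidney and left ventricle overlapped for both enzymes, and muscle was lower for both. The kidney minus left ventricle difference was -0.13 ± 0.20 for Oxct1 and -0.03 ± 0.52 for Acat1 on the log2 scale. These signs were not stable, since scaling by total counts alone gave 0.15 and 0.25. The ± of the members' tissue differences, here and below, is the pooled SD of levels within the compared tissues (n = 8 each). It does not use the pairing of tissues by mouse. Left ventricle exceeded skeletal muscle by 1.64 ± 0.21 for Oxct1 and by 1.78 ± 0.21 for Acat1 on the same scale.

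The other members differed more between tissues. Slc16a1, the transporter, averaged 7.54 ± 2.88 CPM per kilobase in kidney, 36.9 ± 4.00 in left ventricle and 2.84 ± 0.432 in skeletal muscle. Its kidney libraries, at 18.5 to 50.7 CPM, stood below all left ventricle libraries, at 139 to 179 CPM, and above all muscle libraries, at 10.3 to 15.7 CPM. The left ventricle to muscle difference of Slc16a1 was 3.70 ± 0.19 on the log2 scale, a 13.02-fold ratio.

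Bdh1 averaged 20.8 ± 4.64 CPM per kilobase in kidney, 19.01 ± 7.28 in left ventricle and 0.729 ± 0.179 in skeletal muscle. Left ventricle had 45.8 to 106 CPM of Bdh1, against 1.87 to 3.99 CPM in muscle, a difference of 4.63 ± 0.48 on the log2 scale. In muscle the antisense neighbour Gm15743 had 1.08 to 2.35 CPM, close to Bdh1 itself, so the muscle level of Bdh1 and this difference may include reads of Gm15743, whose part was not tested. For the transferase Oxct1 that difference was 1.64, as above. The order of kidney and left ventricle for Bdh1 depended on age. Kidney minus left ventricle was -0.56 ± 0.26 at 86 weeks and 0.96 ± 0.08 at 16.5 weeks (log2, pooled SD within tissues, 4 mice each).

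Bdh2 was a kidney transcript in these tissues. It averaged 20.5 ± 5.90 CPM per kilobase in kidney, 0.423 ± 0.069 in left ventricle and 0.563 ± 0.118 in skeletal muscle. Kidney libraries had 48.6 to 115 CPM, against 1.32 to 2.18 CPM in left ventricle and 1.66 to 3.28 CPM in muscle. As a background, 1404 olfactory receptor genes, which these tissues are not expected to express, had a 95th percentile of 0.272 to 0.445 CPM per kilobase in left ventricle and 0.361 to 0.448 in muscle. Bdh2 stood above that percentile in 7 of 8 left ventricle and 7 of 8 muscle libraries, and above the olfactory median in 8 of 8 of each. Its level there was low, not far above the upper end of that background. The left ventricle and muscle values of Bdh2 overlapped.

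**Figure D1:**
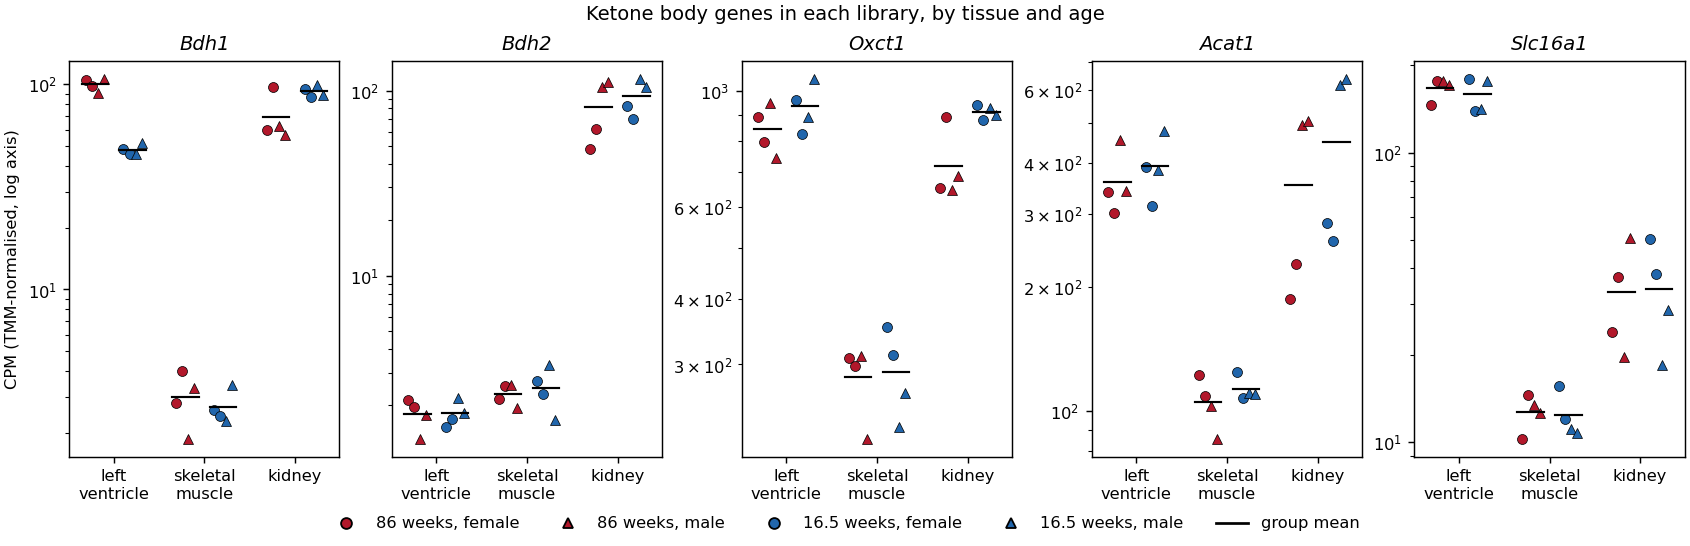
Level of each of the 5 genes in every library, as CPM on log axes, with 86-week libraries (red) left of 16.5-week libraries (blue) within each tissue; circles are females, triangles are males and bars are group means (4 mice each). Bdh1 at 86 weeks, 90.4 to 106 CPM, stands above 16.5 weeks, 45.8 to 51.5 CPM, in left ventricle, and Acat1 in kidney splits by sex at both ages.

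In left ventricle 1 of the 5 genes, Bdh1, passed the threshold for age and was higher at 86 weeks. Bdh1 had 105 and 98.6 CPM in the 86-week females and 90.4 and 106 CPM in the 86-week males, against 48.1 and 45.8 CPM in the 16.5-week females and 45.9 and 51.5 CPM in the 16.5-week males. The ages did not overlap, and each sex held the same pattern. The means were 99.98 ± 7.15 CPM at 86 weeks and 47.8 ± 2.67 CPM at 16.5 weeks (SD, n = 4 each), a ratio of 2.09. The log2 change was 1.06 ± 0.10 (SE). Bdh1 ranked 5 by p-value among the 44546 genes tested for age in this tissue with edgeR's quasi-likelihood test, of which 0.0741% were called at an adjusted p below 0.05. Since the choice of genes rests on this contrast, the rank and the call are a description. Leaving out any single library or changing the test or scaling kept the change between 1.02 and 1.12, and the call held in each of those 15 alternatives.

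The rest of the set stayed close to level with age in left ventricle. Oxct1 had 889, 797, 947 and 742 CPM at 86 weeks, against 959, 828, 891 and 1052 CPM at 16.5 weeks. Its log2 change was -0.14 ± 0.13, and Acat1 (-0.13 ± 0.13), Bdh2 (-0.02 ± 0.21) and Slc16a1 (0.07 ± 0.12) were as small relative to their errors. All 4 had overlapping ages and none was called. The ratio of Bdh1 to Oxct1 within a library, which does not depend on how libraries are scaled, was 0.0909 to 0.136 at 86 weeks and 0.0466 to 0.0527 at 16.5 weeks per exon kilobase.

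Several markers were set beside the left ventricle values. Of 12 nuclear genes for mitochondrial proteins, such as citrate synthase and respiratory chain subunits, none was called for age by edgeR or DESeq2. None had an unadjusted p below 0.05, a count with no share over all genes beside it, so nothing is read from it. All 12 had changes below 0, with a median of -0.14 on the log2 scale. The 4 atrial genes summed to 15.5 to 182 CPM at 86 weeks and 19.95 to 135 CPM at 16.5 weeks, with medians of 126 CPM at 86 weeks and 29.3 CPM at 16.5 weeks, and none was at 0 counts. None of the 4 was called, but all 4 had changes above 0, as Bdh1 did, with a median of 1.67 on the log2 scale. The 6 cardiomyocyte genes summed to 44190 to 61870 CPM at 86 weeks and 53120 to 63960 CPM at 16.5 weeks, with 0 of 6 called. The part of these differences in the Bdh1 change was not tested. Gm15743, the antisense neighbour, drew 0.94 to 2.5 CPM over all 24 libraries, far fewer reads than Bdh1 in left ventricle but not in muscle, as given above.

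**Figure D2:**
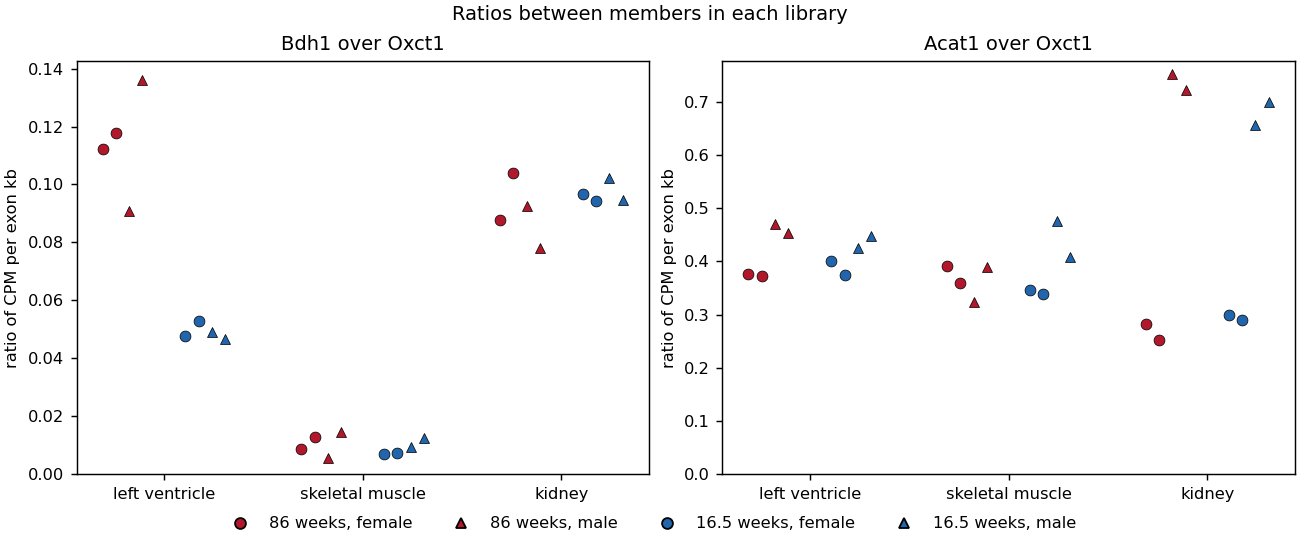
Ratio of Bdh1 to Oxct1 (left) and of Acat1 to Oxct1 (right) in each library, as ratios of CPM per exon kilobase, with 86-week libraries (red) left of 16.5-week libraries (blue); circles are females and triangles are males. Bdh1 over Oxct1 in left ventricle was 0.0909 to 0.136 at 86 weeks and 0.0466 to 0.0527 at 16.5 weeks. Acat1 over Oxct1 was 0.656 to 0.752 in male and 0.252 to 0.299 in female kidneys. In left ventricle it was 0.425 to 0.471 in males and 0.373 to 0.401 in females.

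Skeletal muscle showed no member past the threshold for age, where 0.0183% of 43711 genes were called. Changes lay between -0.09 and 0.20 on the log2 scale, and the ages overlapped for each of the 5 genes. Bdh1 had 2.80, 3.99, 1.87 and 3.30 CPM at 86 weeks, against 2.58, 2.42, 2.27 and 3.44 CPM at 16.5 weeks, so the left ventricle pattern was not seen at these low levels. By edgeR no member had an unadjusted p below 0.05, and DESeq2 called 0 of 5. These counts have no share over all genes beside them, so nothing is read from them.

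In kidney 4 of the 5 genes had log2 changes with age below 0, and none was called, where 0.112% of 44572 genes were. An unadjusted p below 0.05 was found for 3 of the 5, and DESeq2 called 0 of 5. The 3 were Acat1, Bdh1 and Oxct1, which ranked 397, 996 and 1073 by p-value among the genes tested. Unadjusted counts in this paragraph have no share over all genes beside them, so nothing is read from them. Bdh1 had 60.2, 97.2, 63.0 and 56.6 CPM at 86 weeks, against 95.3, 87.2, 99.7 and 89.2 CPM at 16.5 weeks, a log2 change of -0.40 ± 0.14. The 86-week female replicate 12 lay among the 16.5-week kidneys and the other 3 kidneys at 86 weeks lay below all of them. Oxct1 had 652, 890, 647 and 688 CPM at 86 weeks, against 938, 880, 927 and 897 CPM at 16.5 weeks (-0.31 ± 0.11), with the same animal again the high one. Acat1 changed by -0.32 ± 0.09: the 86-week females had 187 and 227 CPM against 285 and 259 CPM in 16.5-week females, and the 86-week males had 494 and 505 CPM against 618 and 638 CPM in 16.5-week males. Within each sex the Acat1 values of the ages did not overlap, with only 2 mice per age. Acat1 was not called (edgeR adjusted p = 0.302). Changes of Bdh2 (-0.21 ± 0.11) and Slc16a1 (0.05 ± 0.26) were smaller relative to their errors. The 12 mitochondrial reference genes also had changes below 0 in kidney, with a median of -0.18 and 0 of 12 called, and 4 of 12 had an unadjusted p below 0.05. The part of that common difference in the member values was not tested.

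All 24 libraries were then fitted together to compare the change with age between tissues. By edgeR 1 of the 5 genes, Bdh1, was called, where 0.0319% of 46984 genes were, with the rise in left ventricle beside the lower kidney level. This contrast is part of the choice of genes and nothing is read from the call. It was lost in 8 of 15 alternatives, with 0 of 5 called under relative log expression size factors, total counts or no filter on low counts, and also when 16.5-week replicate 14, 15 or 19 or 86-week replicate 11 or 17 was left out. No member was called for a difference of the age change between sexes, where edgeR called 0.0157% of genes in left ventricle, 0.0% in muscle and 0.0247% in kidney. In kidney 1 of 5, Slc16a1, had an unadjusted p below 0.05 for it, and 0 of 5 in the other tissues. DESeq2 called 0 of 5 in each. Neither the unadjusted nor the DESeq2 counts have a share over all genes beside them, so nothing is read from them. Each age and sex had 2 mice.

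Kidney differed by sex in 2 of the 5 genes, both higher in males. Acat1, the thiolase, had 618 and 638 CPM in the 16.5-week males and 494 and 505 CPM in the 86-week males, against 285 and 259 CPM in the 16.5-week females and 187 and 227 CPM in the 86-week females. No male value reached down to a female one. The means were 564 ± 74.8 CPM in males and 239 ± 42.1 CPM in females (SD, n = 4 each), a ratio of 2.35. The log2 difference was 1.22 ± 0.09 (SE), with an adjusted p of 6.18e-07 in edgeR's quasi-likelihood test.

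Bdh2, the cytosolic dehydrogenase, had 115 and 105 CPM in the 16.5-week males and 105 and 111 CPM in the 86-week males, against 82.1 and 70.3 CPM in the 16.5-week females and 48.6 and 62.1 CPM in the 86-week females. The sexes did not overlap. Means were 109 ± 5.19 CPM in males and 65.8 ± 14.1 CPM in females, a ratio of 1.66, and the log2 difference was 0.72 ± 0.11 (edgeR adjusted p = 0.000549). Without any single library the difference stayed between 1.18 and 1.25 for Acat1 and between 0.64 and 0.81 for Bdh2, and both calls held. The background is high in this contrast: 7.58% of 44572 genes were called for sex in kidney.

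The other 3 members did not pass the threshold for sex in kidney. Bdh1 differed by -0.19 ± 0.13 and Oxct1 by -0.12 ± 0.11 on the log2 scale. Slc16a1 had 18.5, 28.6, 19.7 and 50.7 CPM in males, against 50.3, 38.0, 24.01 and 37.2 CPM in females, a difference of -0.38 ± 0.26. The 86-week male replicate 17 was the highest kidney for this transporter, and without it Slc16a1 was called at -0.79 ± 0.17 (edgeR adjusted p = 0.00961). The ratio of Acat1 to Oxct1 per exon kilobase was 0.656 to 0.752 in male kidneys and 0.252 to 0.299 in female kidneys. In left ventricle the sexes did not overlap in this ratio either, at 0.425 to 0.471 in males and 0.373 to 0.401 in females. In skeletal muscle they overlapped, at 0.324 to 0.477 in males and 0.338 to 0.391 in females.

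Left ventricle and skeletal muscle gave 0 of 5 members called for sex by edgeR and by DESeq2, where edgeR called 0.871% and 1.36% of genes. In left ventricle Acat1 had an unadjusted p below 0.05, with a log2 difference of 0.27 ± 0.13 (adjusted p = 0.949), and in skeletal muscle Oxct1 did, with -0.27 ± 0.12 (adjusted p = 0.483). Acat1 had 384, 478, 453 and 342 CPM in male left ventricles, against 390, 314, 339 and 302 CPM in female ones, and the sexes overlapped. A test of the sex difference between tissues in all 24 libraries called Acat1 (edgeR adjusted p = 2.67e-05), where 1.88% of genes were called. Bdh2, low outside kidney, was not called there (edgeR adjusted p = 0.121). It passed with a filter of 1 CPM in 4 libraries (adjusted p = 0.0386) and without 16.5-week replicate 19 (0.0342).

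**Figure D3:**
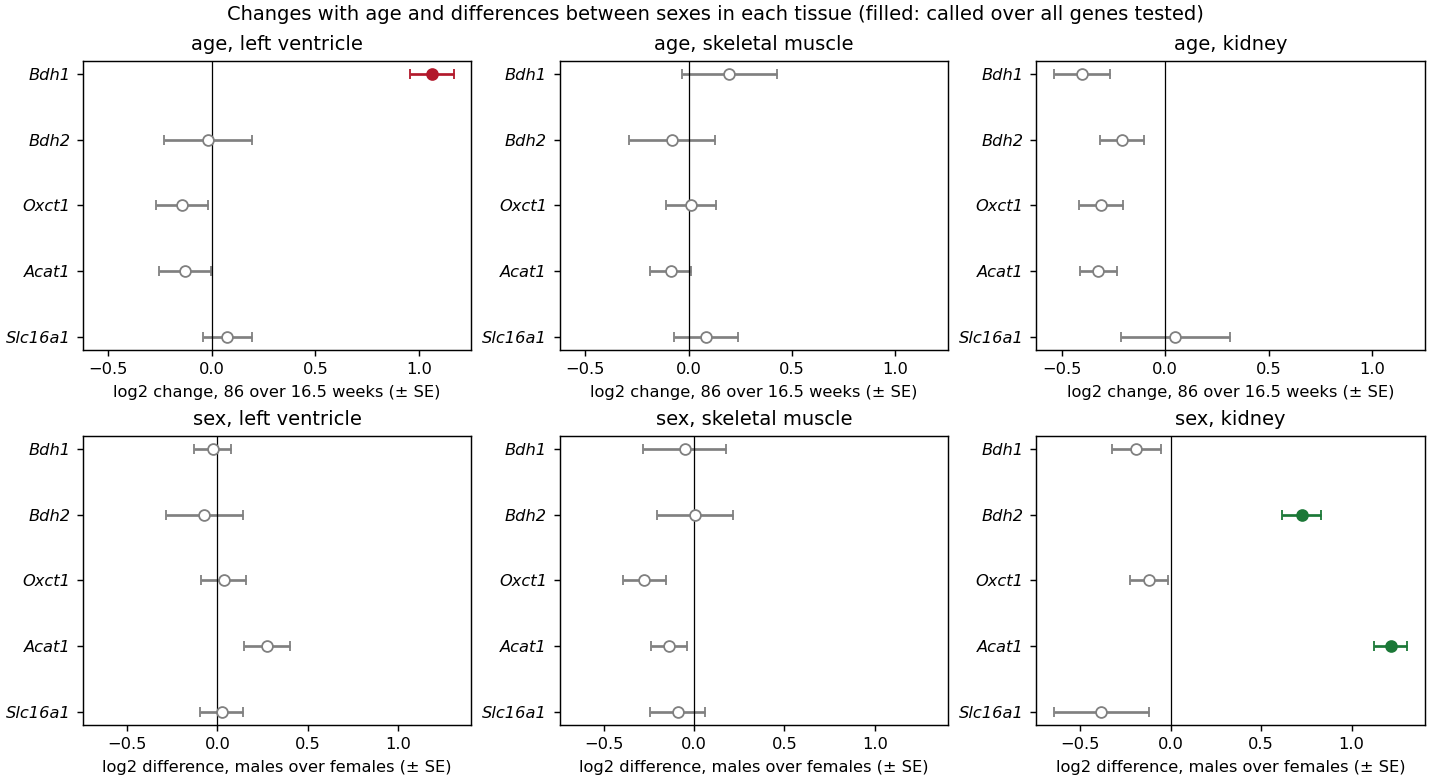
Log2 change at 86 over 16.5 weeks (top) and log2 difference of males over females (bottom) for the 5 genes in each tissue, as points with SE from edgeR fits of 8 libraries; filled points were called at an adjusted p below 0.05 over all genes tested. For age Bdh1 in left ventricle is filled, at 1.06, and for sex Acat1 (1.22) and Bdh2 (0.72) in kidney are.

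Cell type markers of the kidney also differed by sex, where edgeR called 7.58% of all genes tested. All 4 genes of the late proximal tubule were called, 3 higher and 1 lower in males, and their summed level was 1316 to 2063 CPM in males and 294 to 505 CPM in females. The 3 higher genes were Slc7a13, Acy3 and Slc5a8, and Slc22a7 was lower. Summed markers of the early proximal tubule overlapped, at 7289 to 9211 CPM in males and 6969 to 10370 CPM in females, with 2 of 4 called. Those of the thick ascending limb and distal tubule were 2953 to 3715 CPM in males and 3764 to 4912 CPM in females, with 2 of 4 called. Podocyte markers were 32.1 to 49.9 CPM in males and 49.8 to 71.9 CPM in females, with 2 of 2 called. No library had a marker of these lists at 0 counts. Of the 12 mitochondrial reference genes 1 was called by edgeR (Hspd1), with a median difference of 0.19. The part of these marker differences in the values of Acat1 and Bdh2 was not tested.

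The wider pathway was followed in a list of 28 other genes for ketone synthesis, acetoacetate use, transport, sensing, regulation and fuel choice. None was called for age by edgeR in any tissue, and 1, 6 and 9 had an unadjusted p below 0.05 in the left ventricle, muscle and kidney tests. DESeq2 called 0, 1 (Slc16a6) and 1 (Slc5a8) of them there. Their median age changes were -0.05, -0.10 and -0.14 on the log2 scale in the same order. For sex 0 of 28 were called by edgeR in either of the striated tissues, left ventricle and muscle. There 3 and 6 had an unadjusted p below 0.05, and DESeq2 called 0 and 1 (Bsg). No share over all genes is set beside these unadjusted counts, so nothing is read from them.

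In kidney edgeR called 14 of these 28 genes for sex, 8 higher and 6 lower in males, where 7.58% of 44572 genes were called. Acaa2, a thiolase of mitochondrial fatty acid oxidation, was lower in males by -0.57 ± 0.12 on the log2 scale.

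In kidney, Aacs, the cytosolic synthetase that activates acetoacetate for sterol and fatty acid synthesis, averaged 116 ± 8.41 CPM in males and 52.2 ± 16.8 CPM in females (log2 difference 1.16 ± 0.17, edgeR adjusted p = 0.000477). Hmgcs1, the cytosolic synthase of the sterol pathway, differed by 0.91 ± 0.12, and Acat2, a cytosolic thiolase, by 0.57 ± 0.13. Of the transport genes, Slc5a8, a sodium-coupled monocarboxylate transporter of the tubule, averaged 299 ± 88.5 CPM in males and 100.05 ± 26.5 CPM in females (1.54 ± 0.12, adjusted p = 1.45e-06). Slc5a8 is also 1 of the 4 late proximal tubule markers above. Slc16a7, which encodes MCT2, and Emb, an accessory protein of these carriers, were lower in males by -0.56 ± 0.10 and -0.41 ± 0.10. Among fuel genes Pdk4, a brake on pyruvate oxidation, was lower (-1.53 ± 0.20), as was Cpt1b (-0.45 ± 0.12), while Cpt1a (0.48 ± 0.12), Cpt2 (0.43 ± 0.11) and the mitochondrial deacetylase Sirt3 (0.33 ± 0.09) were higher. Several calls were lost when a single library was left out. The adjusted p went up to 0.180 for Sirt3 (without 16.5-week replicate 19), and to 0.145 for Cpt1b, 0.114 for Cpt2 and 0.0724 for Cpt1a (each without 16.5-week replicate 15). For Emb it went up to 0.0502 without 86-week replicate 17. Cpt1a, Cpt1b, Cpt2 and Sirt3 also lost the call without 16.5-week replicate 15 or 19 or 86-week replicate 14, and all but Cpt2 without 86-week replicate 12. Cpt1b and Sirt3 lost it without 86-week replicate 17, and Sirt3 without 16.5-week replicate 14. The calls of Slc5a8, Aacs, Hmgcs1, Acat2, Acaa2, Slc16a7 and Pdk4 held with any single library left out. Acat2 lost its call in 1 of 15 alternatives, a change of processing. Over all 15, the call was lost in 9 for Cpt1b, 8 for Sirt3, 6 for Cpt1a, 5 for Cpt2 and 3 for Emb.

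The test of the sex difference between tissues called 5 of the 28, where 1.88% of 46984 genes were called. Among the 5 were Acaa2, Aacs, Hmgcs1 and Slc5a8. Without the mouse on which each most depended, the adjusted p was 0.0541 for Aacs (86-week replicate 14), 0.0829 for Hmgcs1 (16.5-week replicate 14), 0.219 for Slc5a8 (16.5-week replicate 15) and 0.207 for Acaa2 (16.5-week replicate 20). Slc5a8 also lost it without 86-week replicate 11 or 14, and Acaa2 without any mouse but 86-week replicate 17.

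**Figure D4:**
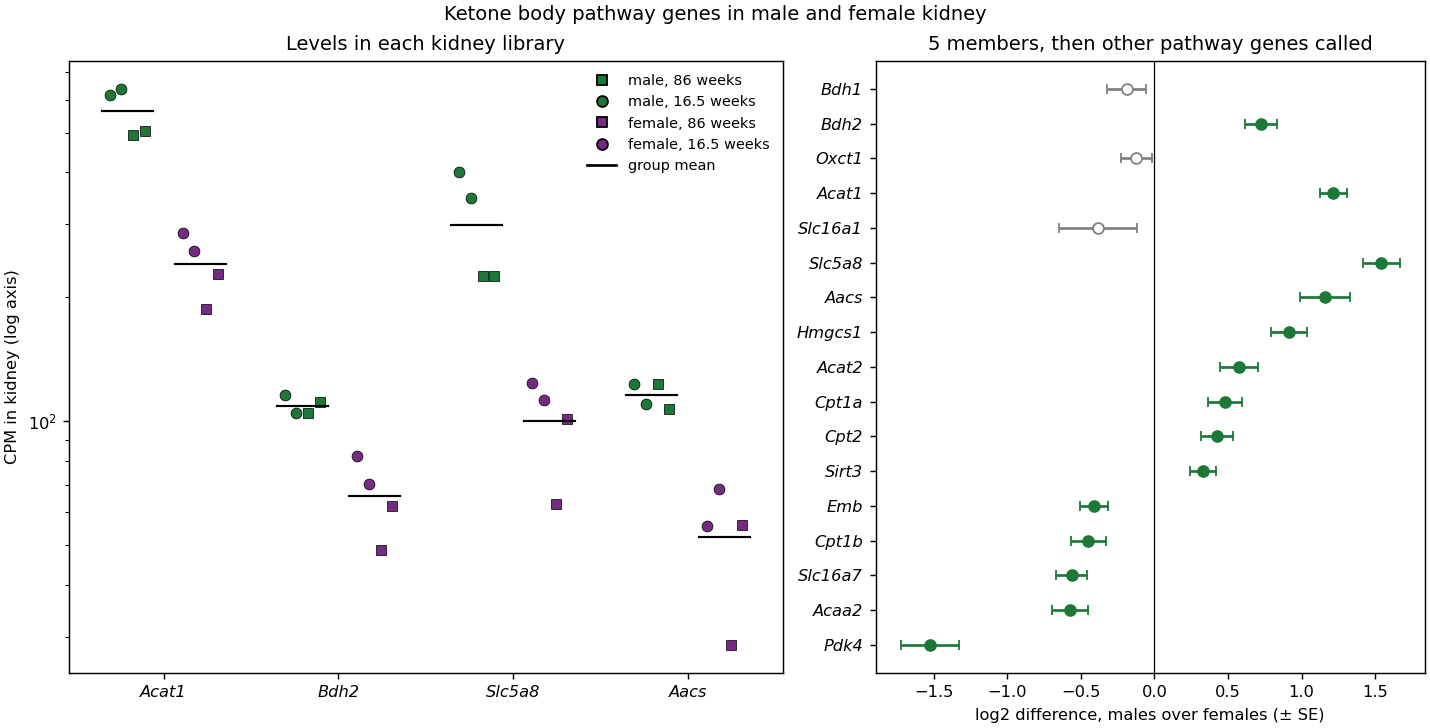
Left, CPM in each kidney library on a log axis for Acat1, Bdh2, Slc5a8 and Aacs, males (green) left of females (purple), with squares for 86 weeks, circles for 16.5 weeks and bars for the means of 4 mice. Right, log2 difference of males over females with SE for the 5 members and 12 other pathway genes called, filled where the adjusted p is below 0.05; Slc5a8 is highest at 1.54 and Pdk4 lowest at -1.53.

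Levels across tissues were tested for the 28 other pathway genes, a list also chosen with earlier results of these data known. Their calls and adjusted p-values across tissues, here and for the transporters below, are therefore a description. Left ventricle over skeletal muscle called 13 higher and 5 lower (26.6% of all genes called), kidney over left ventricle 14 higher and 8 lower (33.6%), and kidney over skeletal muscle 17 higher and 8 lower (43.5%). Aacs averaged 83.9 ± 36.1 CPM in kidney, 6.04 ± 0.854 CPM in left ventricle and 7.51 ± 2.73 CPM in skeletal muscle.

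The transporters divided by tissue. Slc16a3, which encodes the lactate exporter MCT4, averaged 2.16 ± 0.372 CPM in kidney, 3.24 ± 0.926 CPM in left ventricle and 140 ± 33.0 CPM in skeletal muscle, so that left ventricle was lower than muscle by -5.43 ± 0.17 on the log2 scale (edgeR adjusted p = 3.61e-19). For Slc16a1 left ventricle was above muscle. Slc16a7 (144 ± 34.3 CPM), Slc5a8 (200 ± 122 CPM) and Slc5a12 (232 ± 59.3 CPM) were highest in kidney. Slc5a8 stood above the olfactory 95th percentile in 0 of 8 left ventricle and 1 of 8 muscle libraries. Bsg, the chaperone that brings MCT1 and MCT4 to the membrane, averaged 199 ± 22.0 CPM in kidney, 543 ± 66.5 CPM in left ventricle and 334 ± 77.1 CPM in muscle.

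The 12 mitochondrial reference genes give a scale for the member levels. They were higher in left ventricle than in muscle by a median of 1.12 (log2), with 11 higher and 1 lower, and lower in kidney than in left ventricle by a median of -1.27, with 1 higher and 11 lower. Oxct1 and Acat1, at -0.13 and -0.03 between kidney and left ventricle, lay within the range of that list, -2.22 to 0.42, and above its median. Only Hspd1 (0.42) of that list lay above them there. In the other tissue pairs both members lay above the whole list. Left ventricle over muscle was 1.64 for Oxct1 and 1.78 for Acat1, where the list spanned -0.65 to 1.55. Kidney over muscle was 1.51 for Oxct1 and 1.75 for Acat1, where the list spanned -1.37 to 1.32.

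For each member the 3 genes with the most similar pattern were found among 16034 genes, by the root mean square difference of centred log2 CPM over the 24 libraries. Oxct1 had the closest, Rock1 (0.125), Hif1a (0.149) and Serinc5 (0.174). Acat1 was followed by Acads (0.189), which encodes a dehydrogenase of short-chain fatty acid oxidation, Mcrip2 (0.199) and Phyh (0.207). The 3 nearest to Bdh2 included Upb1 (0.272) and Slc26a1 (0.286), and Slc16a1 was followed by Pde3a (0.305), Acaa2 (0.321) and Pip5k1b (0.336). The nearest genes to Bdh1, Nceh1 (0.481), Cabcoco1 (0.498) and Cobll1 (0.549), were further away. These distances are descriptions over libraries that share mice and tissues.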

How the data were processed

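Whole-number gene counts of 24 libraries were deposited by the authors as 1 table of 55401 genes. The submitters' processing notes name GRCm38.p6, STAR 2.7.6a and StringTie 2.1.1 without roles. The annotation and strand setting are not given in the sources used here. Of the gene identifiers 54349 matched GENCODE M21, which gave positions and exon lengths. Libraries held 52602585 to 103797551 counts, which limit the precision of low genes such as Bdh2 outside kidney.

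Within a tissue, age and sex were tested (8 libraries, additive terms, 5 residual degrees of freedom) with edgeR 4.0.16 quasi-likelihood F-tests in R 4.3.3, after filterByExpr and TMM, two-sided, adjusted by Benjamini-Hochberg over all genes tested (threshold 0.05). Tissue means, and differences of age or sex effects between tissues, came from a fit of 24 libraries without a term for the mouse. Its tests treat the 3 libraries of a mouse as independent, and a mouse block was an alternative. Log2 CPM used a prior count of 2. DESeq2 1.42.0, other scalings and filters, and leaving out each mouse were alternatives, and scripts were tested on simulated data. The 3 libraries of a number and age come from the same mouse, so they are paired by animal. Correlations of their deviations were between -0.160 and 0.350.

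The 5 members and the gene lists were chosen with earlier results of these data known. Named genes were the members, pathway genes past the threshold for sex, fixed pathway genes, and the 3 of most similar pattern with a mean of at least 1 CPM. The olfactory receptor comparison was added after seeing the data. A few genes of these rules are not reported here. Replicates are separate mice.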

Additional observations from a re-analysis of the deposited data

Results flagged for a closer look

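In 3 of 30 groups of 4 libraries 1 value lay far from the other 3, measured by Dixon's gap ratio, a measure that chance passes in about 1 of 20 groups. Bdh1 in kidney at 86 weeks was highest in replicate 12, at 97.2 CPM, with a gap of 0.842 of the group's range. Oxct1 in the same library was at 890 CPM, with a gap of 0.830. Oxct1 in skeletal muscle at 86 weeks was lowest in replicate 17, at 216 CPM, with a gap of 0.857.

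The sex difference of 5 genes differed between the 3 tissues in edgeR's test over 24 libraries, where 1.88% of genes were called. The adjusted p was 2.67e-05 for Acat1, 0.00385 for Aacs, 0.00491 for Hmgcs1, 0.0205 for Slc5a8 and 0.0304 for Acaa2. Slc5a8 was near the olfactory background outside kidney. Of 15 alternatives, the call was lost in 9 for Acaa2, 4 for Slc5a8 and 1 each for Aacs and Hmgcs1. It held in all 15 for Acat1.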

How the results depend on the processing

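Counts of members called for age or sex within a tissue kept their value in the alternatives run, except that 3 rather than 2 were called for sex in kidney without 86-week replicate 17, with Slc16a1 added. For age by tissue the count of 1 became 0 with relative log expression size factors, total counts alone and no low-count filter, and lay between 0 and 1 when 1 mouse was left out. For sex by tissue it became 2 with a filter of 1 CPM in 4 libraries and lay between 1 and 2 when 1 mouse was left out. With the mouse as a replicate block the counts were 1 and 1, and the adjusted p of Acat1 for sex by tissue was 0.000139. The block changed no member's call. The cause of these changes was not tested.

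Small differences that were not called changed sign. With all 24 libraries in a single fit, DESeq2 and size factors, Bdh1 for sex in left ventricle was 0.0010, 0.0109 and 0.0111, Oxct1 for age in muscle was -0.0185, -0.0154 and -0.0154, and Bdh2 for sex in muscle was -0.0397, -0.0234 and -0.0233 (log2). Bdh2 for sex in muscle was -0.0093 with no filter. Without the covariate Oxct1 for age in muscle was -0.0056 and Slc16a1 for age in kidney was -0.0194. Leaving out 1 mouse gave ranges of -0.12 to 0.14 (Bdh2, age) and -0.066 to 0.043 (Bdh1), -0.19 to 0.10 (Bdh2), -0.016 to 0.11 (Oxct1) and -0.040 to 0.13 (Slc16a1) for sex in left ventricle. In muscle they were -0.25 to 0.13 (Bdh2) and -0.11 to 0.065 (Oxct1) for age, and -0.23 to 0.15 (Bdh1), -0.23 to 0.17 (Bdh2) and -0.24 to 0.024 (Slc16a1) for sex. In kidney Slc16a1 ranged over -0.36 to 0.26 for age.

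Counts over all genes were less stable: 18 to 117 for age in left ventricle, 0 to 89 in muscle and 0 to 231 in kidney. Depth limits Bdh1 in muscle and Bdh2 outside kidney, at 1.32 to 3.99 CPM. Comparisons of age or sex within a tissue use different mice, so no block applies to them.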
